A study of Mus musculus with 2 samples.

Results

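The Smad2/3 regions described here are those that lay around 4 genes of the Notch pathway, Hes1, Jag1, Notch1 and Hey1. They come from a list of 5847 regions obtained by chromatin immunoprecipitation and sequencing (ChIP-seq) in NMuMG cells, an epithelial line from the mouse mammary gland. A region was taken when its centre fell in a fixed window around a gene on mouse genome build mm9, and 14 of the 5847 regions did so. The windows were chromosome 16 at 29960000 to 30170000 for Hes1, chromosome 2 at 136800000 to 137050000 for Jag1, chromosome 2 at 26210000 to 26460000 for Notch1 and chromosome 3 at 8560000 to 8770000 for Hey1. The loci were chosen by gene with the positions of the listed regions already known, and the grouping of regions at Hes1 was part of that choice. Counts and spacing are therefore given as a description, without a test.

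The study held 1 ChIP library, made with an antibody against Smad2/3, and 1 input library. In both groups the NMuMG cells, from cultures kept with 10 ug/ml insulin, were exposed for 1.5 h to 1 ng/ml TGF-beta3 while 10% fetal bovine serum was present. With 1 ChIP library there are no replicates, and with no untreated cells analysed here the list holds occupancy after treatment and no change. Each region has a position, a width and a running number in the list. Whether that number ranks the regions is not stated, and no read count, height or depth comes with it. A place without a region cannot be read as unbound.

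Smad2 and Smad3 are the transcription factors that TGF-beta receptors activate by phosphorylation, after which they enter the nucleus with Smad4 and bind DNA beside other factors. In the Notch pathway, a ligand such as Jag1 on one cell engages a receptor such as Notch1 on its neighbour. The receptor is then cleaved, and its intracellular part joins the DNA-binding protein RBPJ to switch on targets such as Hes1 and Hey1, which encode basic helix-loop-helix repressors. TGF-beta signalling and the Notch pathway are known to interact in epithelial cells that undergo epithelial-mesenchymal transition, for which NMuMG is a much used model.

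All 4 loci held at least 1 Smad2/3 region, and their numbers were uneven. Hes1 had 8 regions in 210 kb, Jag1 had 4 in 250 kb, and Notch1 and Hey1 had 1 each in 250 kb and 210 kb. Per Mb this came to 38.1 regions at Hes1, 16 at Jag1, 4.76 at Hey1 and 4 at Notch1, against 2.31 over the stretches of the chromosomes that the list spans. Windows of the same lengths were laid end to end along those stretches to see how often such numbers occur. At least 8 regions were found in 0.191% of the 12045 windows of 210 kb, which is 23 windows (exact 95% interval 0.121 to 0.286%, covering counting error only). At least 4 were found in 3.71% of the 10117 windows of 250 kb, or 375 windows (3.35 to 4.09%). At least 1 region was present in 28.3% of windows of 250 kb (27.4 to 29.2%) and in 25.2% of windows of 210 kb (24.4 to 26.0%). The number at Hes1 was thus reached in few windows, and those at Notch1 and Hey1 in many more. Most windows were empty, however, with 0 regions in 71.7% of those of 250 kb and 74.8% of those of 210 kb. The end-to-end windows were laid without regard to genes, whereas the 4 loci were laid around genes.

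**Figure D1:**
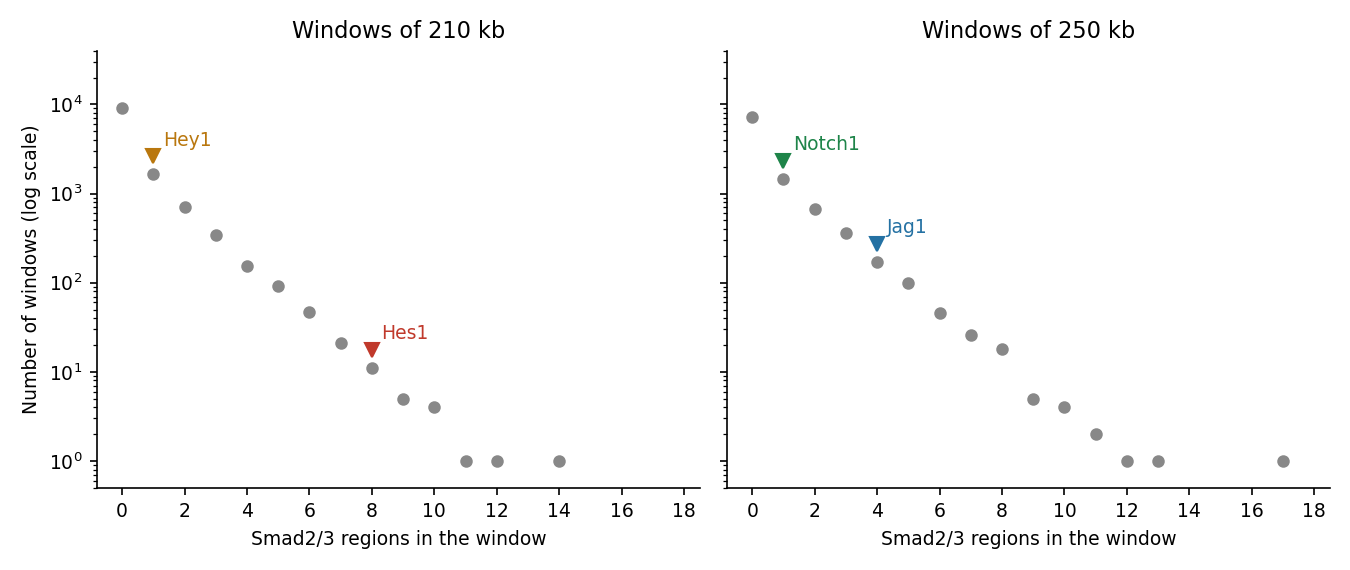
Number of windows (log scale) by the number of Smad2/3 regions they hold, for end-to-end windows of 210 kb (left) and 250 kb (right), as grey points where at least 1 window holds that number, with triangles marking the loci of that length. Hes1, with 8 regions, lies far along the tail, where 23 windows hold as many or more, Jag1 has 4 regions, and Notch1 and Hey1 each have 1.

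Hes1 is a transcriptional repressor and a classical Notch target. In genomic order, its first region spanned 599 bp of chromosome 16, from 30008901 to 30009499, and had list number 1097. Another of 299 bp followed from 30024951 to 30025249, with list number 3195. These 2 regions stood 15.9 kb apart, and 28.4 kb separated the latter from the others, so that neither belonged to a cluster. A cluster was defined as a run of at least 3 regions whose neighbouring centres lie no more than 12500 bp apart.

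The other 6 regions of the Hes1 locus formed 1 cluster, from 30053351 to 30071199. Its first region, at 30053351 to 30053599, measured 249 bp and was number 4655. The second, at 30059551 to 30059749, measured 199 bp and was number 5253. Both were narrow and came late in the list. The third region of the cluster, at 30063201 to 30063549, measured 349 bp and was number 2278, the earliest number of the cluster. The fourth, at 30063651 to 30064649, measured 999 bp and was number 2956. These 2 lay side by side near the middle of the window, with 101 bp between their edges and 775 bp between their centres. Edges no more than 101 bp apart occurred in 47 of the 5827 neighbouring pairs of the list (0.807%). The fifth region, at 30068801 to 30068999, measured 199 bp and was number 5678. The last, at 30070301 to 30071199, measured 899 bp and was number 2517. The cluster thus held 2 wide regions, of 999 and 899 bp, among 4 regions of 199 to 349 bp.

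**Figure D2:**
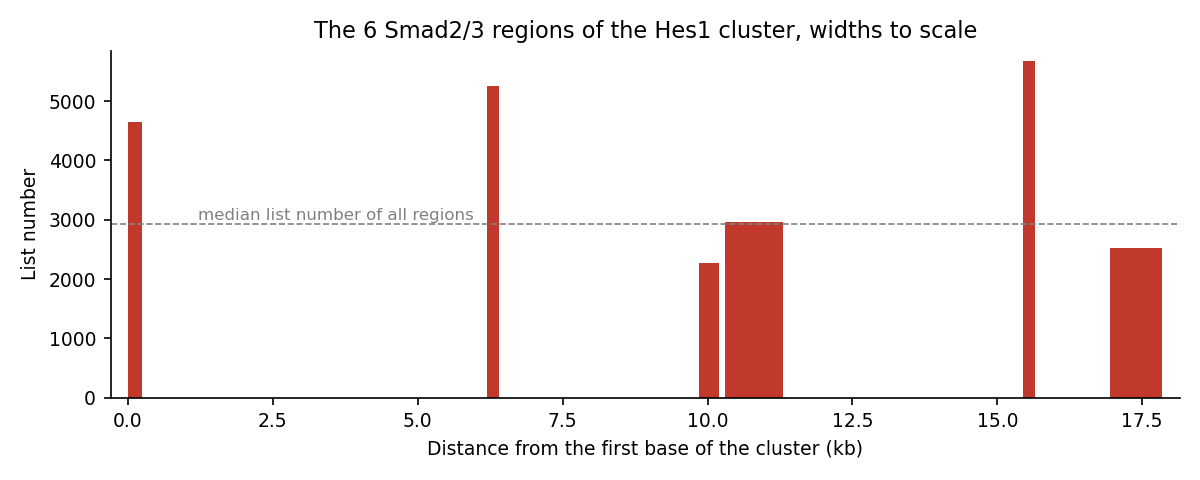
The 6 regions of the Hes1 cluster drawn to scale along the distance from its first base (kb), each as a bar whose width is the region's width and whose height is its list number, with the median number of the whole list dashed. The 999 bp region directly follows the 349 bp region, and list numbers run from 2278 to 5678, with 4 of the 6 bars reaching above the dashed line.

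Centres within the Hes1 cluster were 6175, 3725, 775, 4750 and 1850 bp apart, in genomic order. Over the whole list, the median spacing of neighbours was 96.5 kb, and 1255 of the 5827 spacings were no more than 12500 bp. Spacings inside any cluster are that short by definition, so they must lie below this median. The cluster extended over 17.8 kb, of which its regions covered 2.89 kb, or 16.2%. Regions in clusters made up 13.9% of the list and 6 of the 14 regions of the 4 loci. All 6 were among the 8 at Hes1, whose grouping was part of the choice of loci. Jag1, Notch1 and Hey1 had 0 regions in clusters. The list contained 237 clusters, and 11 of them, the one at Hes1 included, had at least 6 regions. These 11 clusters held 1.23% of all regions. Among them, 2 were shorter than the Hes1 cluster and 1 contained a region wider than 999 bp.

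The earliest region of the Hes1 cluster had a later list number than that of any other cluster of at least 6 regions. The earliest number in each of the other 10 clusters of at least 6 regions ranged from 26 to 1680, with a median of 194.5, whereas the Hes1 cluster began at number 2278. Of all 237 clusters, 36 began later than that, and none of these 36 had more than 4 regions. The median number within the Hes1 cluster, 3805.5, lay inside the range of 1088 to 4187.5 over the other 10. The earliest region of the Hes1 cluster was also not its widest. Earliest and widest coincided in 144 of the 237 clusters (60.8%) and in 5 of the 11 large ones.

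The 2 wide regions of the Hes1 cluster had later list numbers than most regions of their width. Of the 117 regions of the list that were at least 999 bp wide, the median number was 500, and 3 had a number of 2956 or later, the Hes1 region among them. Of the 201 regions at least 899 bp wide, 17 (8.46%) stood at number 2517 or later, the other wide Hes1 region among them. Among the 200 regions within 100 places of number 2956, the median width was 299 bp and 1 was as wide as the Hes1 region. Among those around number 2517, the median was 349 bp and 2 reached 899 bp. The remaining 6 regions of the Hes1 locus had 54 to 160 regions as wide among their own 200 list neighbours.

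**Figure D3:**
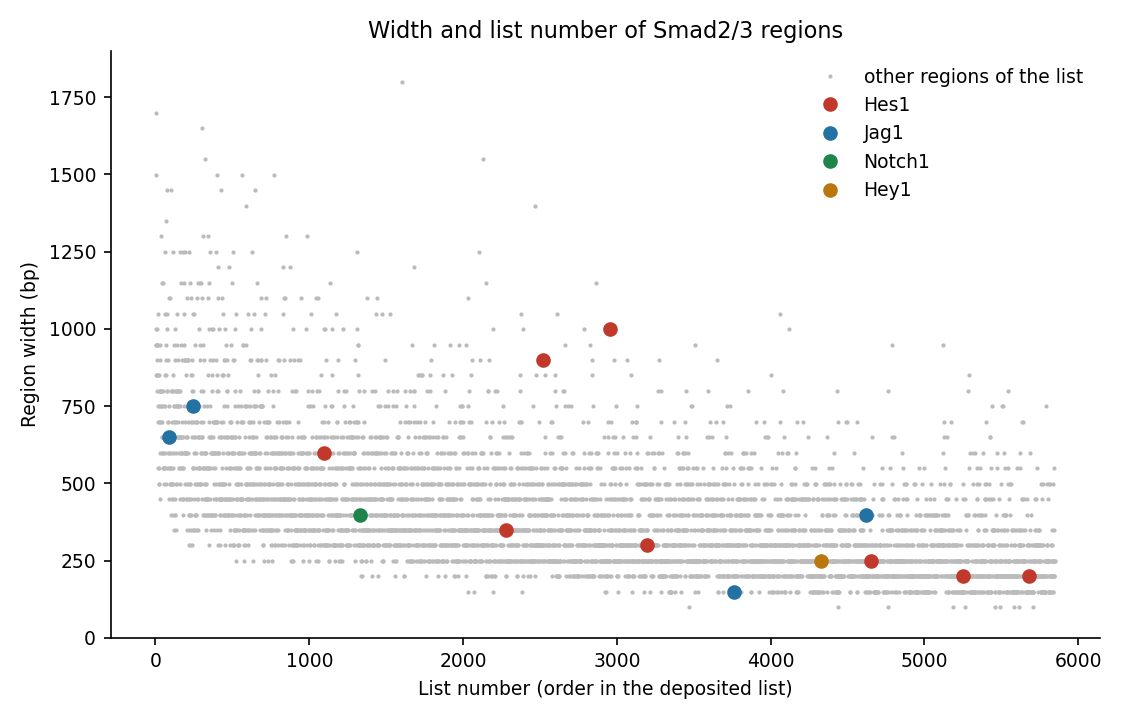
Width (bp) against list number for all 5847 regions (grey) and for the regions of the 4 loci (coloured). The Hes1 regions of 999 and 899 bp lie above nearly all grey points of similar number, while the Jag1 regions numbered 90 and 241 lie in the early and wide part of the list.

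Jag1 encodes a transmembrane ligand of the Notch receptors. Its first region lay on chromosome 2 at 136832151 to 136832899, measured 749 bp and was number 241 in the list. A second lay 109 kb further on at 136941501 to 136941649, measured 149 bp and was number 3760. The next followed at 136942851 to 136943249, with 399 bp and number 4623. The fourth lay at 136976551 to 136977199, measured 649 bp and was number 90, the earliest of all 14 regions. The locus thus had an early, wide region on either side of a pair of later ones. Centres of that pair were 1475 bp apart, and the fourth region stood 33.8 kb from the pair, so no cluster of 3 was formed. A nearest neighbour within 1475 bp was found for 720 regions of the list (12.3%).

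The outer Jag1 regions resembled others of similar list number in width. Among the 200 regions within 100 places of number 241, the median width was 599 bp and 64 were at least as wide as the 749 bp region. Among the 189 around number 90, the median was 699 bp and 123 reached 649 bp. The 149 bp region was among the narrowest of the list, a place it shared with others of the same width. Of the 5847 regions, 5837 were at least as wide, ties included, and 5567 were at least 199 bp wide. All 200 of its list neighbours were at least as wide. The 399 bp region stood among neighbours with a median of 249 bp, of which 38 were as wide.

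Notch1 encodes a Notch receptor. Its only region lay on chromosome 2 at 26412101 to 26412499, 77.3 kb from the middle of the window. It measured 399 bp and was number 1332. The next region of the list lay 105 kb away at 26516751 to 26516949, outside the window, and in the other direction no region was listed for 1407 kb. A distance to the nearest region at least as large occurred for 26.9% of the list. In RefSeq's order of protein-coding genes (GRCm38.p6, used for names only) Notch1 lies between Sec16a and Egfl7, the latter a secreted protein of blood vessels. Which of these genes is closest to the region was not determined, as no gene positions on mm9 were used.

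Hey1 encodes a repressor related to Hes1 and is likewise a Notch target. Its only region lay on chromosome 3 at 8667351 to 8667599, 2.47 kb from the middle of the window. It measured 249 bp and was number 4325, late in the list and narrow. Its nearest neighbour in the list was 320 kb away, and on the other side no region was listed for 1154 kb. A nearest neighbour at least as far away was found for 663 regions (11.3%). Hes1 and Hey1, both targets of the pathway, stood at opposite ends in number of regions, with 8 and 1 in windows of 210 kb. Hey1 shared the low end with Notch1, which also had 1 region. The number at Hes1 was 7 with regions within 500 bp merged and 6 with those within 2 kb merged.

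**Figure D4:**
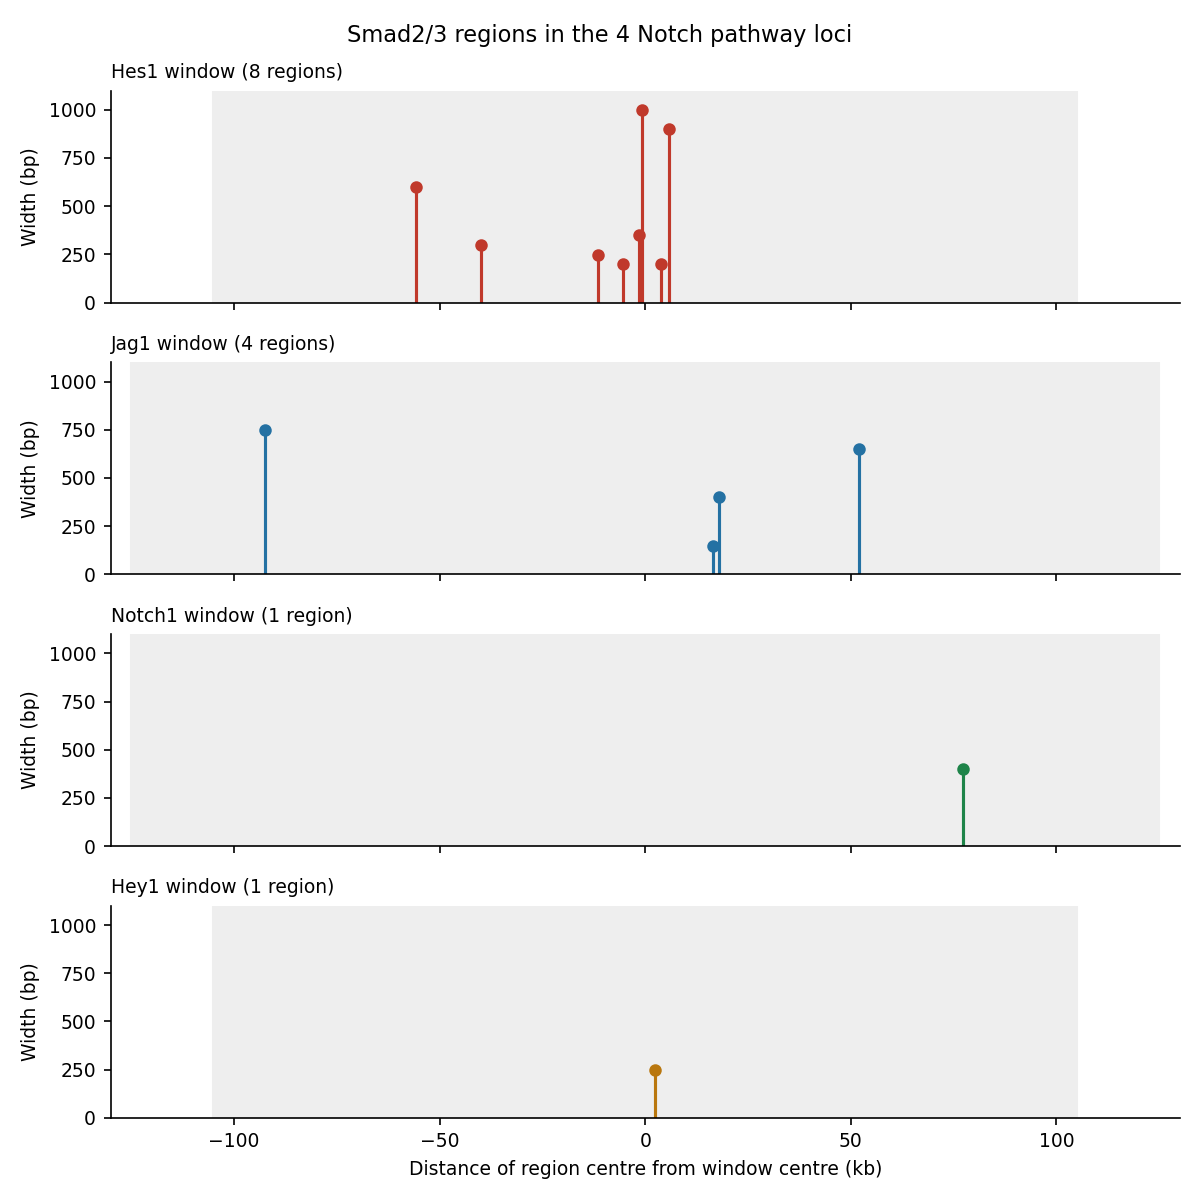
Width (bp) of each Smad2/3 region against the distance of its centre from the middle of the window (kb) at Hes1, Jag1, Notch1 and Hey1, with the windows shaded. Hes1 shows 6 regions close to the middle of its window and 2 to one side, Jag1 a close pair between 2 outlying regions, and Notch1 and Hey1 a single region each.

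Over all 14 regions, widths ran from 149 to 999 bp with a median of 374 bp, beside a median of 349 bp in the other 5833. By locus the median was 324 bp at Hes1 (range 199 to 999 bp) and 524 bp at Jag1 (149 to 749 bp), and the single regions measured 399 bp at Notch1 and 249 bp at Hey1. In all, 8 of the 14 regions were at least 349 bp wide, the median of the list, against 55.2% of the list. The first 2923 places of the list (50.0%) held 6 of the 14, of which 3 were at Hes1, 2 at Jag1 and 1 at Notch1. Median list numbers were 3075.5 at Hes1, 2000.5 at Jag1, 1332 at Notch1 and 4325 at Hey1, and the numbers of Hes1 (1097 to 5678) and Jag1 (90 to 4623) overlapped widely. In width and list order the 14 regions together lay close to the rest of the list. What set Hes1 beside few other windows was the number of its regions, which the choice of loci had used along with their grouping. Spacing was not compared between windows. At Hes1 itself, the earliest number of the cluster was late for a cluster of its size, and 2 regions were late for their width. Covered sequence was 3792 bp at Hes1 (1.81% of its window), 1946 bp at Jag1 (0.778%), 399 bp at Notch1 (0.160%) and 249 bp at Hey1 (0.119%), beside 0.0917% for the rest of the list over the stretches it spans.

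The edges of the windows did not cut through a group of regions at Hes1. The outermost regions inside the window lay 49.2 and 99.3 kb from its edges, and the nearest ones outside lay 144 and 170 kb beyond them, numbers 1301 and 3224 with 299 and 249 bp. At Jag1, the outermost regions lay 32.5 and 73.1 kb inside, and the nearest outside lay 295 and 186 kb beyond. The Notch1 region lay 47.7 kb from an edge, and region number 2746, with 199 bp, lay 56.8 kb beyond that edge. The nearest region outside the Hey1 window lay 217 kb beyond its edge.

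Sequences just before the gene start were at hand for 2 of the 4 members, Jag1 and Notch1, from RefSeq on build GRCm38.p6. They are shown to give the letters before the start of these genes, 250 bases each, 5′ to 3′ on the minus strand of chromosome 2, at chr2:137116521-137116770 for Jag1 and chr2:26503823-26504072 for Notch1. Capitals mark GTCTG or its reverse complement CAGAC, the short element that Smad3 and Smad4 are known to contact, and the GC-rich element GGCTCC or its reverse complement GGAGCC.
Jag1: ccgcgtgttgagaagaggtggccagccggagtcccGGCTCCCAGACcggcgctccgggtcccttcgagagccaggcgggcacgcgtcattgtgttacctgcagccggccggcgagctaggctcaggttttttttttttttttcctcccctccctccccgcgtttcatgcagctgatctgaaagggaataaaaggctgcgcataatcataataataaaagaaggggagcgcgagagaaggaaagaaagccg
Notch1: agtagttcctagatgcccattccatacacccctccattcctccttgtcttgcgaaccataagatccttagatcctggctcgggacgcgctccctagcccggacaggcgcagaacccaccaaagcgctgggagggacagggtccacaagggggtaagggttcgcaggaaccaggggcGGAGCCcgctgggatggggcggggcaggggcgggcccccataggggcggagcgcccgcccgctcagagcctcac
Both strands were searched. In the Jag1 sequence GGCTCC was directly followed by CAGAC, and the Notch1 sequence held GGAGCC and no GTCTG or CAGAC. Of 32817 such sequences in the RefSeq table, 42.2% held GTCTG and 26.0% held GGCTCC on either strand, so these matches were common. Neither sequence held GGCGCC (9.59% of all), CAGACA, which contains CAGAC (17.1%), GTCTAGAC (0.168%), the RBPJ element TGGGAA (21.6%), the AP-1 element TGANTCA (6.75%) or the E-box CACGTG (6.02%). The N-box CACNAG, to which Hes proteins are known to bind, was present in the Notch1 sequence and not in that of Jag1 (36.7% of all). These positions are on another build than the Smad2/3 regions and were not set against them, so a match is a description of these letters and not a bound site.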

How the data were processed

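The authors' deposited file listed Smad2/3 regions of 1 anti-Smad2/3 ChIP-seq library as 6 BED columns. Per the submitters' processing notes, Bowtie2 and build mm9 were used, with neither version nor role. For the peak caller, its threshold and the use of the input library, the entry is: not given in the sources used here. Deposited scores were 1000 throughout, and carried no strength. Starts were multiples of 50 bp. The BED convention was assumed, and printed positions count from 1. Widths such as 99 bp and edge gaps such as 51 bp lay 1 bp off the 50 bp grid. If the deposited ends were inclusive, each width would be 1 bp larger and each edge gap 1 bp smaller.

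Groups were taken from the sample descriptions. Members, windows and lists were chosen with earlier results of these data known. All regions in the windows are named. Computations used Python 3.11.15, pandas 2.3.3, NumPy 2.4.6 and SciPy 1.17.1, and the counting, merging and cluster steps were tested on simulated data. Tiled windows start at the first region of each of the 20 chromosomes, and a last incomplete window was left out. Intervals on shares are exact (Clopper-Pearson). They treat windows as independent, which neighbouring windows need not be, and do not cover variation between libraries. No p-value was computed, as regions of 1 library are not replicates. Alternatives were other window lengths, overlap in place of centres, wider or earlier regions, merging, other cluster definitions and other tilings. Other Notch pathway genes, region sequences and proteins were not analysed here.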

Additional observations from a re-analysis of the deposited data

How the results depend on the processing

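Of 70 values computed under alternatives, 54 stayed near those reported, with counts within 1.5 times, shares of windows within their interval or median widths equal. Some of these values could not change. Notch1 and Hey1 had 1 region each, with nearest neighbours 105 and 320 kb away. Their regions could therefore neither join a cluster nor be merged under any setting used, and the tally is no measure of stability. With only regions of at least median width, Hes1 had 4 and Hey1 had 0. The first part of the list alone held 3 at Hes1, 2 at Jag1 and 0 at Hey1, with median widths of 599 bp at Hes1 and 699 bp at Jag1. Both settings hold fewer regions by construction. Windows shortened by 50 kb on each side left 0 regions at Notch1, and the median width became 299 bp at Hes1 and 399 bp at Jag1. Windows lengthened by 100 kb on each side gave Notch1 2 regions with a median of 299 bp, and the other 3 loci gained none. At Jag1, 3 regions were in a cluster with centres within 50 kb and 2 with runs of at least 2 regions, against 0. The Hes1 cluster counted 4 to 8 regions under its 6 alternatives. With centres within 50 kb it took in all 8 regions of the locus, and its earliest number became 1097 in place of 2278. Its place among other clusters linked in that way was not computed, so the late earliest number is reported for the 12500 bp link only. On autosomes alone, 29.7% of windows held as many regions as Notch1 and 26.5% as many as Hey1. No paired analysis was possible because the ChIP was done in 1 library, and no replicate could be left out. Depth is unknown, so a single region at Notch1 or Hey1 has no measure of its strength.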

Other observations

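Beyond the windows, stretches of the same length were counted on either side. At Hes1, the adjoining 210 kb held 3 regions on the side of lower positions and 1 on the side of higher positions. The stretch after the latter held 7 regions, 4 of them in a cluster, among them number 261 of the list. Region numbers that early were not found at Hes1 itself, where the earliest was 1097. At Jag1, the adjoining 250 kb held 0 regions on the side of lower positions and 3 on the side of higher positions. At Hey1, both adjoining stretches of 210 kb held 0 regions, and the one after that on the side of higher positions held 5, of which 3 were in a cluster. At Notch1, none of the 3 stretches on the side of lower positions held a region. Which genes lie in these stretches was not determined. RefSeq's order of protein-coding genes places Hes1 between Opa1 and Cpn2, and Jag1 between Slx4ip and Btbd3.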
